A study of Danio rerio with 15 samples.

Results

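The HOX genes of groups 1 to 12 were followed along the proximodistal axis of the zebrafish caudal fin, whose proximal end is the base and whose distal end is the tip. They were taken as the genes of 3 deposited pairwise tables whose symbol reads hox, a cluster letter from a to d, a group number from 1 to 12 and a copy letter a or b. The rule found 41 genes among the 23926 gene IDs of the tables together, 40 of them in the distal and proximal table, 41 in the middle and proximal table and 40 in the distal and middle table. The 6 genes of group 13 were left out and serve below only as a comparison. The rule reads symbols alone and no measured value, but it was chosen with earlier results of these data known.

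HOX genes encode homeodomain transcription factors and lie in clusters, in which the order of the genes follows their group number. Genes of low groups are known for patterning the hindbrain and neck, and genes of high groups for patterning the posterior trunk and the limb buds, where the posterior genes of the A and D clusters act in the distal bud in mouse. Teleost fish went through an additional genome duplication, so that a gene such as *hoxa11* exists as an a and a b copy in separate clusters. The 41 genes fell into 7 clusters: *hoxaa* with 5 genes, *hoxab* with 4, *hoxba* with 9, *hoxbb* with 4, *hoxca* with 10, *hoxcb* with 3 and *hoxda* with 6.

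Total RNA depleted of ribosomal RNA was sequenced from distal, middle and proximal fin regions of AB WT zebrafish, with 5 libraries per position and 15 in all. Each library was a pool of fin regions from 2 male and 2 female fish, and the labels name no treatment and no age. A fin region holds epidermis, bone, fibroblasts, vessels and nerves, so fewer cells of a type and less RNA per cell cannot be told apart here. The deposited tables give a mean per gene and position. Each mean is a weighted sum of 5 whole read counts. The weights were not given and were inferred from the means of genes with few reads. The counts were then solved from the 15 digits of each mean. Levels below are normalized counts, that is reads divided by the size factor of the library. Libraries are numbered 1 to 5 by size factor within a position, which is not the replicate number of the labels. All 5 counts were recovered at every position for 40 of the 41 genes; *hoxb8b*, absent from the tables with distal fin, had 5 reads over the middle and 6 over the proximal libraries. The genes with recovered counts held from 9882873 to 12551286 reads in distal, from 11933625 to 13381719 in middle and from 11578186 to 12217359 in proximal libraries. No sequencing batch was named in the labels. Transcript lengths were not used here, so levels are compared between positions and not between genes.

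The first comparison asked which HOX genes differ between the tip and the base of the fin. By the authors' deposited table, 8 of 40 genes were called higher in distal than in proximal fin at an adjusted p under 0.05, and 0 were called lower. The genes called were *hoxa1a*, *hoxa4a*, *hoxa9b*, *hoxa10b*, *hoxa11a*, *hoxa11b*, *hoxc11b* and *hoxd4a*. The share called higher, 20.0%, lay near that of all genes in the table, of which 17.9% were called higher, while 18.1% of all genes were called lower against none of the HOX genes. At an unadjusted p under 0.05 the deposited table held 9 of 40 HOX genes, 8 higher and 1 lower, against 10096 of all 23404 genes. The fold was above 1 for 29 of the 40 genes (72.5%), against 46.8% of all genes, and the median log2 fold change was 0.34, against −0.04 over all genes. On the recovered counts, limma tested the 32 genes that reached 10 reads in 5 or more libraries and called 8 higher and 0 lower, where it called 25.8% of all genes higher and 25.7% lower. The other 9 genes had too few reads for that fit and are described by their reads. The 0 lower depended on this minimum. Without it limma called 9 of 40 genes higher and 2 lower, *hoxb5b* and *hoxb6b*, and the share of all genes is not given here. *hoxa1a* reached 10 reads in every distal library but in few middle and proximal ones, so it passed the minimum through distal fin.

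**Figure D1:**
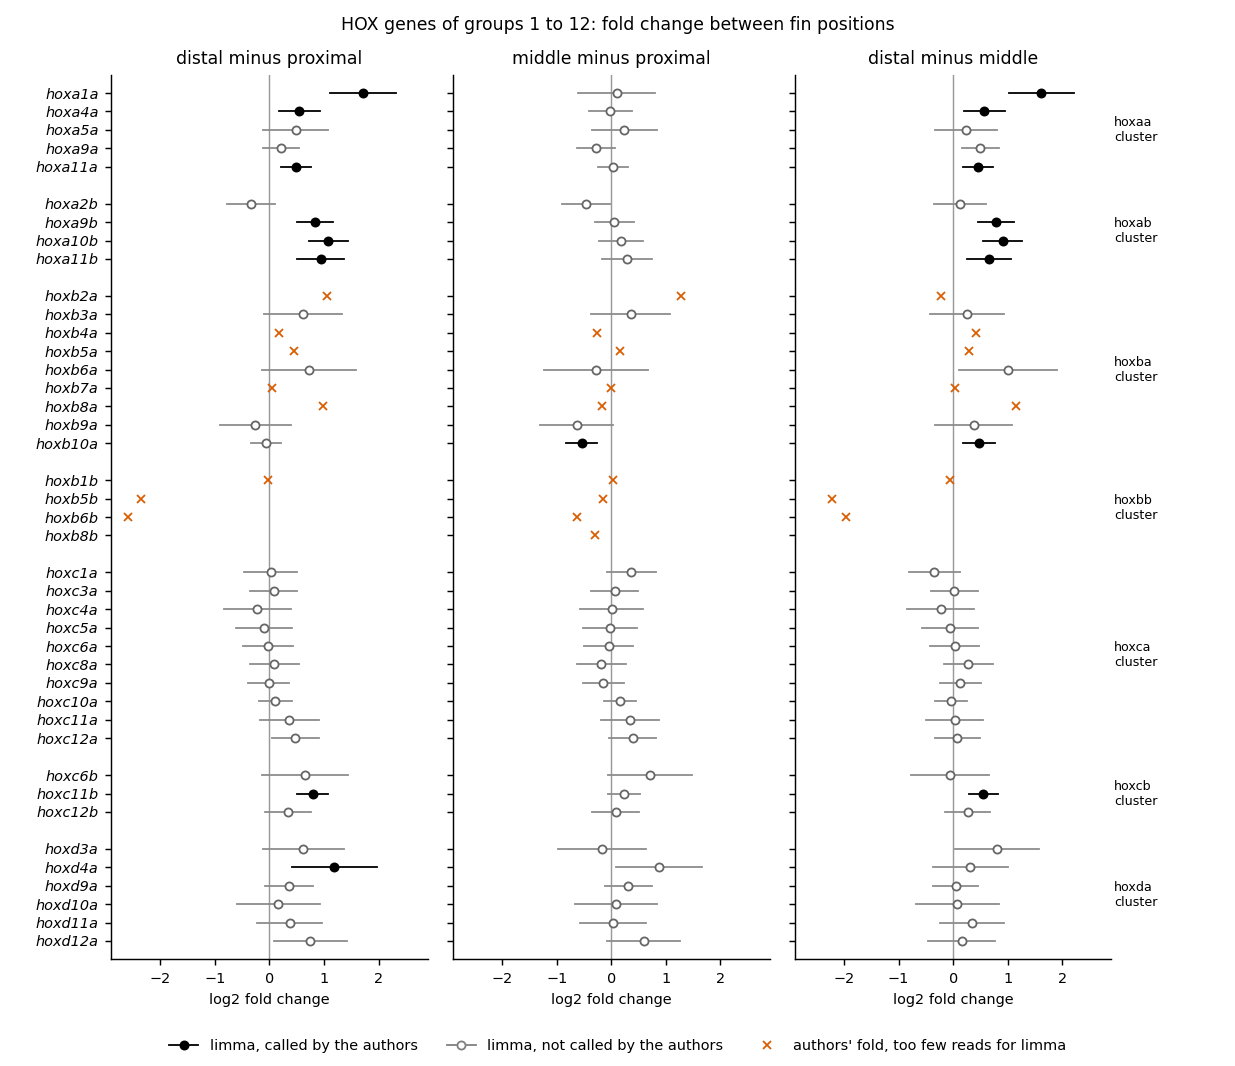
Log2 fold change of each HOX gene between positions, with genes in rows by cluster and group number. Circles are limma estimates with 95% intervals, filled for genes the authors called at 0.05, and crosses are the authors' deposited values for genes with too few reads for limma. In the distal minus proximal panel 6 of the 8 filled circles lie in the *hoxaa* and *hoxab* clusters, and the 10 genes of *hoxca* hold no filled circle, with *hoxc11a* and *hoxc12a* to the right of the other 8.

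Of the 5 *hoxaa* genes 3 were called higher distally, and the folds of all 5 were above 1 in the authors' deposited table. Of all genes, 17.9% were called higher and 46.8% had a fold above 1. *hoxa1a*, of a group known for hindbrain patterning, had 36.2, 21.3, 21.96, 23.5 and 22.7 normalized counts in the distal libraries 1 to 5, against 11.7, 8.74, 3.85, 7.69 and 8.56 in the middle and 6.84, 11.7, 8.71, 4.76 and 5.57 in the proximal ones. Every distal library lay above every middle and proximal library. Here and below, such genes were called on the same libraries, and the share of all genes without overlap was not counted. The gene rose 3.35-fold in distal over proximal fin in the authors' deposited table (adjusted p = 1.75e-05), and the limma log2 fold change was 1.71 (95% interval 1.11 to 2.32). It was the largest fold among the 8 genes called, on 115 reads over the distal, 43 over the middle and 39 over the proximal libraries.

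*hoxa11a*, whose mouse counterpart is needed for the middle segment of the limb, stood at 103, 105, 108, 106 and 135 normalized counts in the distal libraries, against 83.8, 95.1, 61.6, 87.5 and 81.3 in the middle and 90.9, 71.9, 82.2, 67.6 and 86.4 in the proximal ones. The distal libraries did not overlap with either other position. Its fold over proximal fin was 1.39 in the authors' deposited table (adjusted p = 0.0141), with a limma log2 fold change of 0.49 (0.22 to 0.76). *hoxa4a*, of a central group, had 432, 335, 392, 324 and 499.9 normalized counts in distal, 254, 291, 222, 205 and 378 in middle and 356, 195, 266, 217 and 343 in proximal libraries. Here the positions overlapped: the lowest distal libraries lay under the highest proximal ones. The authors' deposited table gave *hoxa4a* a fold of 1.44 (adjusted p = 0.0227), and limma a log2 fold change of 0.55 (0.17 to 0.93). The remaining *hoxaa* genes, *hoxa5a* and *hoxa9a*, averaged 47.5 ± 10.3 and 49.3 ± 6.89 normalized counts distally and 37.4 ± 16.2 and 42.5 ± 4.55 proximally (SD, n = 5 libraries each), with adjusted p = 0.381 and 0.505, from the authors' deposited table.

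In the *hoxab* cluster the 3 posterior genes were called higher distally, where 17.9% of all genes were. *hoxa10b* had 117, 150.3, 109, 96.0 and 152 normalized counts in the distal libraries, against 59.4, 70.9, 59.7, 58.7 and 81.3 in the middle and 82.1, 44.7, 64.8, 60.0 and 46.4 in the proximal ones. *hoxa9b* had 129, 134, 105, 113 and 111 distally, 70.1, 68.0, 49.1, 76.9 and 80.5 in the middle and 44.0, 65.1, 68.7, 73.3 and 83.6 proximally. For both genes every distal library exceeded every other library. Their mouse counterparts Hoxa10 and Hoxa9 act in the proximal limb and the posterior axis. *hoxa11b* stood at 55.5, 59.5, 54.9, 62.9 and 88.8 distally, 37.0, 48.5, 55.8, 32.7 and 33.4 in the middle and 44.0, 26.2, 36.8, 39.0 and 24.1 proximally; distal and proximal libraries did not overlap, and 1 middle library exceeded the lowest distal ones.

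Over proximal fin the folds in the authors' deposited table were 2.10 for *hoxa10b* (adjusted p = 3.02e-06), 1.77 for *hoxa9b* (adjusted p = 2.21e-05) and 1.89 for *hoxa11b* (adjusted p = 0.000125). The limma log2 fold changes were 1.08 (0.72 to 1.45), 0.83 (0.51 to 1.16) and 0.94 (0.51 to 1.37) in that order of genes. The fourth gene of the cluster, the hindbrain gene *hoxa2b*, averaged 29.9 ± 9.31 normalized counts distally, 26.7 ± 5.53 in the middle and 36.6 ± 5.13 proximally, with a limma log2 fold change of −0.34 (−0.79 to 0.11) between distal and proximal fin. Summed over the cluster, *hoxab* held 337 ± 46.4 normalized counts in distal, 203 ± 18.7 in middle and 197 ± 11.04 in proximal libraries, and *hoxaa* 629.9 ± 95.9, 436 ± 84.9 and 443 ± 97.7. The *hoxaa* sum is mostly *hoxa4a*, which averaged 397, 270 and 275.

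**Figure D2:**
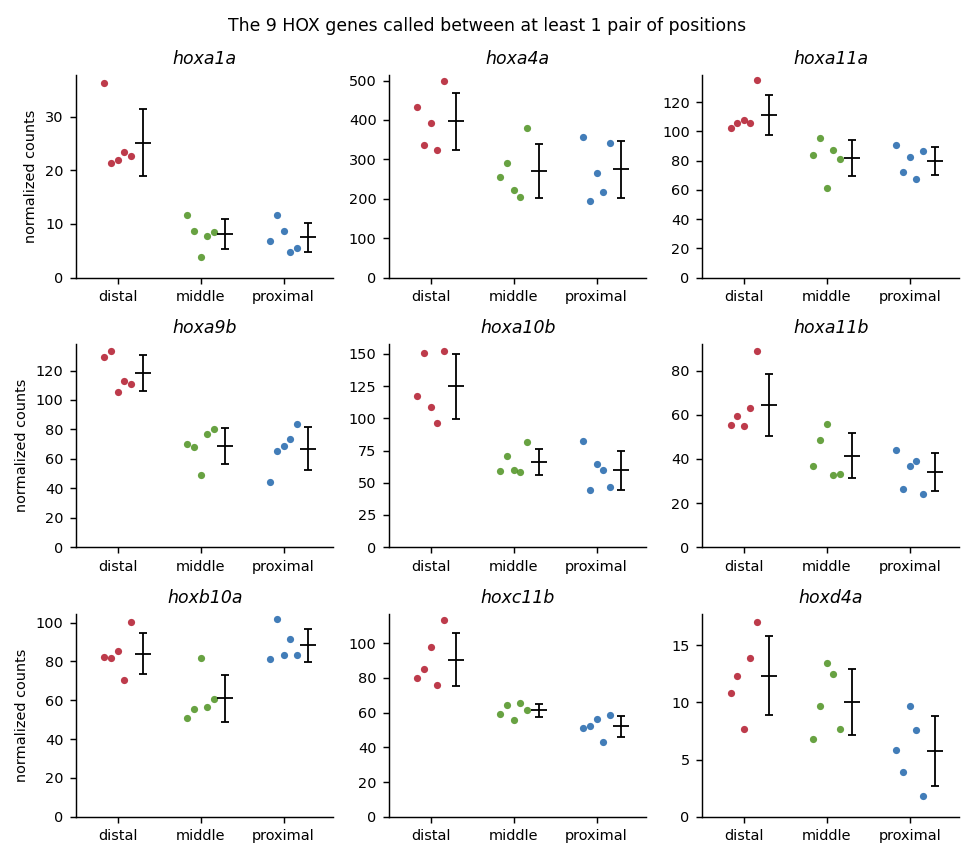
Normalized counts of the 9 HOX genes called by the authors between at least 1 pair of positions, 1 point per library, with the mean and SD of 5 libraries in black. For *hoxa1a*, *hoxa9b*, *hoxa10b*, *hoxa11a* and *hoxc11b* every distal library lies above every middle and proximal library, and for *hoxb10a* 4 of the 5 middle libraries lie below all others. The genes were called on these same libraries, and the share of all genes without such overlap was not counted.

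Outside the A clusters, *hoxc11b* and *hoxd4a* were called. *hoxc11b*, whose mouse counterpart Hoxc11 is expressed in the hindlimb bud, had 79.6, 85.3, 97.7, 75.7 and 113 normalized counts in distal, 59.4, 64.1, 55.8, 65.4 and 61.6 in middle and 50.8, 52.5, 56.1, 42.9 and 58.5 in proximal libraries, with no overlap of the distal libraries with the others. It rose 1.73-fold over proximal fin in the authors' deposited table (adjusted p = 0.000129; limma log2 fold change 0.79, 0.51 to 1.07). *hoxd4a*, a central gene, stood at 10.9, 12.3, 7.69, 13.9 and 17.0 distally, 6.82, 9.71, 13.5, 12.5 and 7.70 in the middle and 5.86, 3.89, 9.67, 7.62 and 1.86 proximally. These groups overlapped and rest on few reads, 58 over the distal, 53 over the middle and 30 over the proximal libraries. The authors' deposited table gave *hoxd4a* a fold of 2.14 and an adjusted p of 0.0493, just under the threshold, and limma a log2 fold change of 1.19 (0.41 to 1.97). In a limma fit without distal library 5, middle library 5 and proximal libraries 1 and 2, *hoxd4a* had a log2 fold change of 1.01 (adjusted p = 0.104). That fit was added after the data were seen and drops libraries with extreme values of several HOX genes. It holds fewer libraries, so lost power and dependence on these libraries cannot be told apart. The other 5 genes of *hoxda*, a cluster whose posterior genes pattern limb and fin buds, were not called; all 6 had a fold above 1, from 1.14 for *hoxd10a* to 2.14 for *hoxd4a*. *hoxd12a* averaged 16.1 ± 2.03 normalized counts distally and 10.2 ± 4.20 proximally, with an adjusted p of 0.197 in the authors' deposited table and 0.0568 in limma. *hoxd3a*, *hoxd9a*, *hoxd10a* and *hoxd11a* averaged between 13.6 and 22.7 normalized counts in distal and between 8.86 and 18.6 in proximal fin, with adjusted p of 0.291 or more in the authors' deposited table. In *hoxcb*, *hoxc6b* averaged 10.8 ± 4.91 distally and 6.86 ± 3.86 proximally, and *hoxc12b* 43.97 ± 6.75 and 34.9 ± 6.08; neither was called. The cluster sums were 98.2 ± 7.48, 83.9 ± 12.1 and 71.0 ± 11.5 from distal to proximal for *hoxda* and 145 ± 15.9, 109 ± 8.85 and 93.9 ± 13.2 for *hoxcb*. The *hoxcb* sum is mostly *hoxc11b*, which averaged 90.4, 61.3 and 52.1.

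In the B clusters 0 of 12 listed genes were called between distal and proximal fin by the authors' DESeq test, 1 had an unadjusted p under 0.05, and limma called 0 of the 4 it could test. Of all genes, the authors called 17.9% higher and 18.1% lower, and limma 25.8% and 25.7%. Most *hoxba* genes, which in vertebrates mark the hindbrain and trunk, had few reads. *hoxb2a*, *hoxb4a*, *hoxb5a*, *hoxb7a* and *hoxb8a* failed the count minimum of limma. The distal means of *hoxb2a* to *hoxb7a* ran from 2.80 ± 1.63 normalized counts for *hoxb2a* to 17.1 ± 6.52 for *hoxb3a*, and their proximal means from 1.34 ± 1.09 to 11.4 ± 6.71 for the same genes (SD, n = 5 libraries). All 6 had a distal to proximal fold above 1 in the authors' deposited table, from 1.03 for *hoxb7a* to 2.08 for *hoxb2a*. Their adjusted p was 0.308 or more. *hoxb9a* and *hoxb10a*, with 155 and 391 reads over the distal libraries, had folds of 0.852 and 0.952. In the whole cluster 7 of 9 genes had a fold above 1 (77.8%), against 46.8% of all genes. The remaining gene, *hoxb8a*, averaged 10.1 ± 3.78 normalized counts distally and 5.11 ± 4.65 proximally. In a limma fit without the count minimum it stood at a log2 fold change of 1.56 (adjusted p = 0.0431), against an adjusted p of 0.158 in the authors' deposited table.

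In the *hoxbb* cluster 0 of 3 listed genes had a distal to proximal fold above 1, on very few reads. *hoxb5b* had 0, 1.12, 1.098, 0 and 1.89 normalized counts in the distal libraries, against 1.95, 3.88, 6.74, 3.85 and 2.57 in the middle and 4.89, 0.971, 7.74, 1.905 and 5.57 in the proximal ones. That is 4 reads against 22 in the proximal libraries, a ratio of 0.205 (exact 95% interval 0.0513 to 0.603). *hoxb6b* had 2 reads over the distal libraries, both in library 2, 9 over the middle and 14 over the proximal ones, a distal to proximal ratio of 0.161 (0.0178 to 0.701). These intervals cover counting error only. Neither gene was called by the authors (adjusted p = 0.0658 for *hoxb5b* and 0.136 for *hoxb6b* in the deposited table), and both were called lower by limma without the count minimum (adjusted p = 0.0326 and 0.0307). *hoxb1b*, whose span overlaps both genes in the RefSeq list of assembly GRCz12tu, had 27, 32 and 31 reads from distal to proximal.

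The *hoxca* cluster held 0 called genes of 10 in each of the 3 comparisons of the authors' deposited tables. It had 0 at an unadjusted p under 0.05 and 0 called by limma. Of all genes, the authors called 17.9% higher and 18.1% lower between distal and proximal fin. Between middle and proximal fin they called 3.51% and 3.8%, and between distal and middle fin 13.3% and 12.9%. Limma called 25.8% and 25.7%, 6.9% and 6.93%, and 20.4% and 18.3% of all genes in that order of comparisons. An unadjusted p under 0.05 in the authors' test was held by 10096 of 23404, 3945 of 23556 and 8008 of 23232 genes. The 10 *hoxca* genes had a median log2 fold change of 0.01 between distal and proximal fin, 0.03 between middle and proximal fin and 0.01 between distal and middle fin. Within the cluster the largest distal to proximal values belonged to the genes of the highest groups: the deposited log2 fold change was 0.48 for *hoxc12a*, 0.36 for *hoxc11a* and 0.11 for *hoxc10a*, and lay between −0.22 and 0.06 for the other 7 genes, *hoxc1a* to *hoxc9a*. The lowest gene of the cluster, *hoxc1a*, averaged 21.7 ± 4.17 normalized counts in distal, 27.8 ± 3.61 in middle and 22.3 ± 8.03 in proximal fin, and *hoxc8a* averaged 77.3 ± 18.4, 63.8 ± 14.6 and 73.95 ± 22.3. The adjusted p of *hoxc12a* was 0.124 in the authors' deposited table and 0.0641 in limma. Leaving out each of the 15 libraries in turn gave *hoxc12a* a limma log2 fold change between 0.33, without distal library 5 (adjusted p = 0.193), and 0.61, without proximal library 1 (adjusted p = 0.0225). It passed 0.05 in 3 of these fits, also without distal library 3 (adjusted p = 0.0389) or 4 (adjusted p = 0.0341), and with positions scaled to equal totals (adjusted p = 0.0362). *hoxc11a* moved between 0.18 without distal library 5 and 0.52 without proximal library 1, with 0.20 without proximal library 2. *hoxc10a* moved between 0.01 without proximal library 2 and 0.19 without distal library 2, with 0.03 without distal library 1. The values of these 3 genes thus moved with single libraries. Their order against the rest of the cluster was not examined in these fits. *hoxc12a* averaged 351 ± 98.7 normalized counts in distal, 332 ± 90.4 in middle and 252 ± 65.1 in proximal fin.

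The values of the *hoxca* genes spread widely between libraries of a position, and mostly in the same libraries. *hoxc12a* had 397, 331, 268, 260.3 and 497 normalized counts in the distal libraries 1 to 5, 282, 447, 295, 232 and 407 in the middle and 358, 189, 217, 230.5 and 265 in the proximal ones. *hoxc11a* had 253, 227, 194, 171 and 386 distally, 206, 309, 191, 159.6 and 350.1 in the middle and 284, 116, 159.6, 196 and 206 proximally. In both genes distal libraries 1 and 5, middle libraries 2 and 5 and proximal library 1 were high, and middle library 4 and proximal library 2 were the lowest of their positions.

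*hoxc10a* had 224, 141, 162, 181 and 179.6 normalized counts distally, 173, 223, 182, 141 and 192 in the middle and 159, 123, 163, 196 and 179 proximally. *hoxc9a* had 168, 141, 155, 132 and 199 distally, 119.8, 162, 139, 121 and 187 in the middle and 239, 109, 161, 139 and 179 proximally. Group 9 and 10 genes are known for patterning the lower trunk; these 2 genes shared proximal library 2 as their lowest proximal library but not their highest one.

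Of the central genes, *hoxc6a* had 204, 160.4, 142, 135 and 222 normalized counts distally, 182, 213, 167, 104 and 192 in the middle and 238, 105, 176, 165 and 213 proximally. *hoxc5a* had 129, 64.0, 84.5, 82.1 and 131 distally, 94.5, 92.2, 104, 73.1 and 140.4 in the middle and 152, 65.1, 92.9, 82.9 and 139 proximally. *hoxc4a* had 92.9, 60.6, 52.7, 77.9 and 129 distally, 91.6, 129, 98.2, 46.2 and 126 in the middle and 134, 59.3, 76.4, 92.4 and 119.8 proximally. Each of these 3 genes had its highest proximal value in library 1 and its lowest in library 2, and the positions overlapped throughout.

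*hoxc3a*, of a group that mammals lost from the C cluster, had 349.9, 224, 248, 304 and 387 normalized counts distally, 262, 342, 296, 216 and 378 in the middle and 378, 164, 269.9, 294 and 359 proximally. In the RefSeq list of assembly GRCz12tu its span overlaps those of *hoxc4a*, *hoxc5a*, *hoxc6a*, *hoxc8a* and *hoxc9a*, and how reads in shared sequence were counted is not given in the sources used here. Reads of these genes can therefore not be assigned with certainty, whereas *hoxc10a*, *hoxc11a* and *hoxc12a* overlap no other HOX gene there. In all, 17 of the 41 genes overlap another HOX gene in that list, among them *hoxd3a* with *hoxd4a* and *hoxb3a* with *hoxb4a*, *hoxb5a* and *hoxb6a*. *hoxa4a* and *hoxa5a* lie in the span of *hoxa3a*, which was not analysed here.

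Distal library 5 held the highest distal value for 9 of the 10 *hoxca* genes, where it held the highest value for 20.4% of the 16455 genes with a mean of at least 20 normalized counts. Proximal library 1 was highest for 8 of 10 (18.9% of all genes), proximal library 2 lowest for 9 of 10 (25.4%) and middle library 4 lowest for 8 of 10 (25.2%). The *hoxaa* cluster, which holds called genes, shared part of this: of its 4 genes at that level distal library 5 was highest for 4, middle library 5 highest for 3 and proximal library 2 lowest for 3. Distal library 5 was also highest for both *hoxba* genes at that level. In proximal fin these 2 genes ran against *hoxca*, with library 1 lowest for both and library 2 highest for 1. The summed *hoxca* counts were 1932, 1436, 1394, 1422 and 2261 in distal libraries 1 to 5, 1486, 2020.2, 1572, 1174 and 2069.7 in middle and 2063, 999.5, 1408, 1485 and 1772 in proximal ones. The highest *hoxca* sum exceeded the lowest 1.62-fold, 1.76-fold and 2.06-fold within distal, middle and proximal fin. The ratio of the distal to the proximal mean, an unlike measure, was 1.09. For the *hoxaa* sums the ratios of highest to lowest were 1.44, 1.60 and 1.65, and the ratio of means was 1.42.

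The summed level of epidermis markers, taken over *tp63*, *cdh1* and *epcam*, 3 of the 5 on the list, was 37436, 40174, 40219, 36011 and 34832 normalized counts in distal libraries 1 to 5, 31269, 32655, 31546, 35889.6 and 31581.5 in middle and 26384, 31110.1, 27748, 28721 and 29136 in proximal ones. At each position the library with the lowest *hoxca* sum had the highest epidermis sum, and in distal and proximal fin the library with the highest *hoxca* sum had the lowest epidermis sum. This list was singled out among 8 after its values were seen, and its part in the spread was not tested. The limma fit without distal library 5, middle library 5 and proximal libraries 1 and 2 holds fewer libraries. It called 8 HOX genes between distal and proximal fin, 0 between middle and proximal fin and 7 between distal and middle fin. The share of all genes called by that fit is not given here, so these counts cannot be set against it. The 8 no longer held *hoxd4a* and newly held *hoxd12a* (log2 fold change 1.049, adjusted p = 0.0496), and the 7 newly held *hoxd3a* (1.11, adjusted p = 0.0487).

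**Figure D3:**
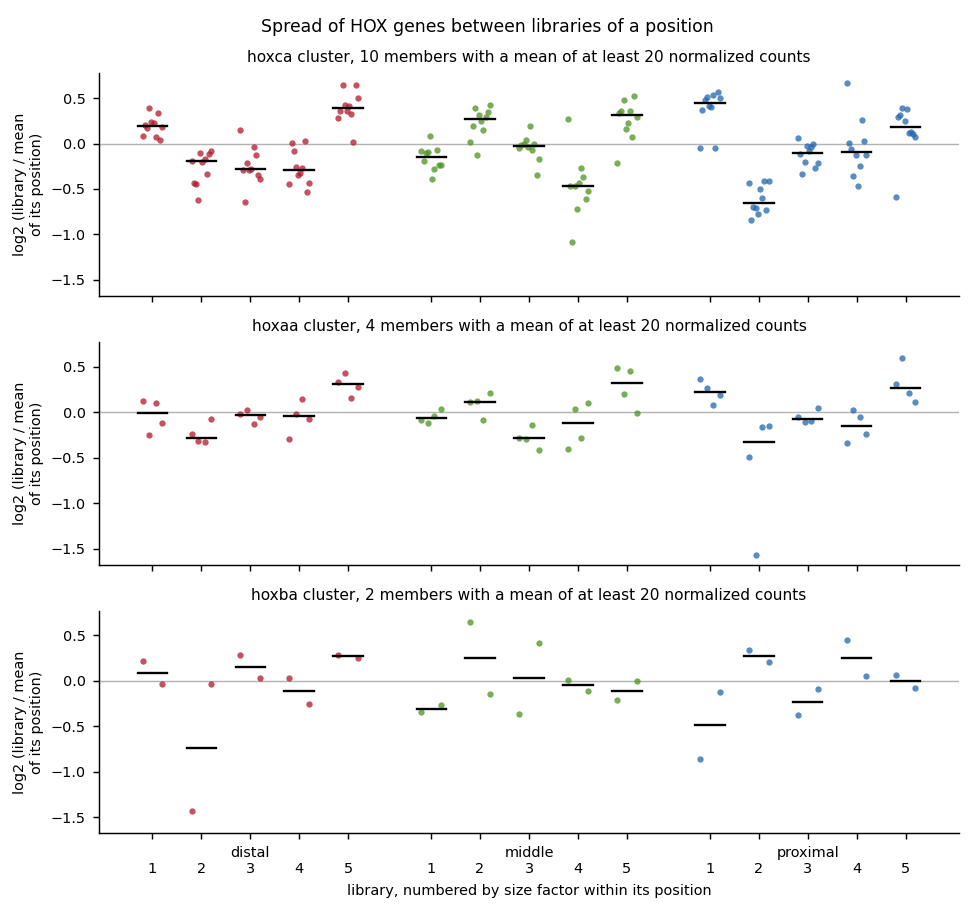
Log2 ratio of each gene in a library to the mean of its position, for genes of the *hoxca*, *hoxaa* and *hoxba* clusters with a mean of at least 20 normalized counts, 1 point per gene and a black line at the median of the genes. The *hoxca* points lie together, above 0 in distal library 5 and below 0 in proximal library 2; *hoxba* has only 2 such genes.

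The comparison of distal with middle fin, which uses the same distal libraries, had 8 of 40 genes called higher and 0 lower in the authors' deposited table, where 13.3% of all genes were called higher and 12.9% lower. The genes were *hoxa1a*, *hoxa4a*, *hoxa9b*, *hoxa10b*, *hoxa11a*, *hoxa11b*, *hoxb10a* and *hoxc11b*. At an unadjusted p under 0.05 the table held 11 of 40 HOX genes, 10 of them higher, against 8008 of all 23232 genes. The median log2 fold change was 0.22, against −0.02 over all genes, and the fold was above 1 for 32 of 40 genes. Limma called 9 higher and 0 lower, against 20.4% and 18.3% of all genes. The gene added by limma was *hoxa9a*, at 49.3 ± 6.89 normalized counts in distal and 35.1 ± 7.42 in middle fin (limma log2 fold change 0.49, 0.15 to 0.83, adjusted p = 0.0219; adjusted p = 0.110 in the authors' deposited table).

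Over middle fin *hoxa1a* rose 3.08-fold (adjusted p = 5.30e-05), *hoxa10b* 1.88-fold (adjusted p = 1.53e-05) and *hoxa9b* 1.71-fold (adjusted p = 6.95e-05) in the authors' deposited table. The other called genes changed less, from 1.35-fold for *hoxa11a* to 1.54-fold for *hoxa11b*. The call of *hoxa4a*, 1.46-fold higher, ended in limma without distal library 5 (log2 fold change 0.47, adjusted p = 0.0539) or middle library 4 (0.48, adjusted p = 0.0513), against 0.57 with all libraries. Without the 4 libraries named above limma gave a log2 fold change of 0.38 for *hoxa11a* (adjusted p = 0.0531), 0.45 for *hoxa11b* (adjusted p = 0.0906) and 0.41 for *hoxb10a* (adjusted p = 0.0600) in this comparison. With all libraries the values were 0.46, 0.66 and 0.47. Lost power in the smaller fit and dependence on these libraries cannot be told apart.

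Between middle and proximal fin the authors' deposited table called 0 of 41 HOX genes higher and 1 lower, where 3.51% of all genes were called higher and 3.8% lower. Limma likewise called 0 higher and 1 lower, against 6.9% and 6.93% of all genes. At an unadjusted p under 0.05 the deposited table held 2 of the 41 genes, both lower, against 3945 of all 23556 genes. The median log2 fold change was 0.04, against −0.01 over all genes. The gene called, *hoxb10a*, belongs to a group that mammals lack in the B cluster. It had 82.0, 81.9, 85.6, 70.4 and 100.2 normalized counts in distal, 50.7, 55.3, 81.8, 56.7 and 60.8 in middle and 81.1, 102, 83.2, 91.4 and 83.6 in proximal libraries.

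Middle fin thus had 4 of its 5 *hoxb10a* values below all values of the other positions, and middle library 3 within their range. The gene was 1.44-fold lower in middle than in proximal fin (adjusted p = 0.0453) and 1.37-fold higher in distal than in middle fin (adjusted p = 0.0460) in the authors' deposited tables, 2 comparisons that share the middle libraries. The corresponding limma log2 fold changes were −0.54 (−0.83 to −0.26) and 0.47 (0.18 to 0.77). Its distal and proximal means, 84.0 ± 10.7 and 88.3 ± 8.62, differed by a limma log2 fold change of −0.07 (−0.34 to 0.20). A limma contrast of the distal to middle step against the middle to proximal step passed an adjusted p of 0.05 for *hoxb10a* alone of 32 HOX genes (1.02, 0.51 to 1.52 on the log2 scale, adjusted p = 0.00939), where 11.5% of all genes passed; it was added after the data were seen. Without the 4 libraries named above, the limma log2 fold change of *hoxb10a* between middle and proximal fin was −0.51 (adjusted p = 0.0651), against −0.54 with all libraries. *hoxb9a*, the second gene under an unadjusted p of 0.05, averaged 33.3 ± 11.996, 24.8 ± 8.18 and 39.0 ± 13.3 normalized counts from distal to proximal (middle against proximal, adjusted p = 0.258 in the authors' deposited table).

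By paralog group, the posterior genes of groups 9 to 12 had 5 of 17 called higher in distal than in proximal fin, the central genes of groups 4 to 8 had 2 of 15 and the anterior genes of groups 1 to 3 had 1 of 8. These are shares of 29.4%, 13.3% and 12.5%, against the 17.9% of all genes called higher, and the differences between the classes were not tested. The median log2 fold change was 0.34 in posterior, 0.17 in central and 0.32 in anterior genes. All 17 posterior genes passed the count minimum of limma, against 9 of the 16 central and 6 of the 8 anterior ones, so the groups differ in depth as well. Group 11 held the most calls, 3 of 5 genes, with *hoxc11a* and *hoxd11a* not called; the folds of all 5 were above 1, from a log2 fold change of 0.29 for *hoxd11a* to 0.92 for *hoxa11b*. Group 4 had 2 of 4 called, *hoxa4a* and *hoxd4a*, groups 1, 9 and 10 had 1 each, and groups 2, 3, 5, 6, 7, 8 and 12 had none. The 3 genes of group 12 had log2 fold changes of 0.33 for *hoxc12b*, 0.48 for *hoxc12a* and 0.66 for *hoxd12a*.

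The copies left by the teleost duplication could be compared within libraries for 7 pairs, as the log2 ratio of copy a to copy b with 0.5 normalized counts added to each. The ratio itself also reflects the lengths of the transcripts, so only its difference between positions is compared, with an exact permutation test, two-sided, over 252 arrangements of 5 distal and 5 proximal libraries. The smallest p this design allows is 0.00794, and p-values were adjusted by Benjamini-Hochberg over the 7 pairs. In the pair *hoxa9*, the ratio averaged −1.26 ± 0.30 in distal and −0.62 ± 0.37 in proximal libraries, a difference of −0.64 (exact p = 0.00794, adjusted 0.0278). The distal libraries ran from −1.75 to −1.01 and the proximal ones from −0.83 to 0.03, without overlap. *hoxa9b* carried this difference, with a log2 fold change of 0.82 against 0.21 for *hoxa9a* in the authors' deposited table.

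A pair of low genes passed as well, *hoxb6* and *hoxb5*. The *hoxb6* ratio averaged 3.88 ± 1.06 in distal and 1.11 ± 0.60 in proximal libraries (difference 2.77, exact p = 0.00794, adjusted 0.0278), and the *hoxb5* ratio 2.64 ± 1.503 and 0.14 ± 1.60 (difference 2.51, exact p = 0.0159, adjusted 0.0370). They rest on the 2 and 4 distal reads of *hoxb6b* and *hoxb5b* given above, so that the size of the ratio depends on the added value: with 0.1 and 1 in place of 0.5 the difference was 4.47 and 2.12 for *hoxb6* and 3.55 and 2.01 for *hoxb5*. Leaving out each of the 10 libraries in turn gave differences between −0.70 and −0.47 for *hoxa9*, between 2.50 and 3.22 for *hoxb6* and between 1.85 and 2.96 for *hoxb5*. The distal and proximal ratios of *hoxa9* and *hoxb6* did not overlap with all libraries, and leaving out a library cannot make them overlap. With 126 arrangements left, the exact p was at most 0.0238 for *hoxa9* and 0.0159 for *hoxb6*, but without proximal library 1, 2, 3 or 5 the adjusted p over 7 pairs was 0.0556 to 0.0694. For *hoxb5* the adjusted p was 0.0694 to 0.0926 without any library other than distal library 5 or proximal library 4. A design with so few arrangements can miss the threshold over 7 pairs at its smallest p: *hoxa9* had an exact p of 0.00794 and an adjusted p of 0.0556 without proximal library 2, 3 or 5.

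For *hoxa11* the ratio differed by −0.44 (exact p = 0.0397, adjusted 0.0694), and the call passed without proximal library 4 (adjusted p = 0.0278). The *hoxc6*, *hoxc11* and *hoxc12* ratios differed by −0.69, −0.42 and 0.14 (adjusted p = 0.2, 0.204 and 0.667 by the same exact test). With middle in place of proximal libraries, a comparison added after the data were seen, 0 of 7 pairs passed, and 1 pair, *hoxb5*, had an unadjusted exact p under 0.05 (exact p = 0.0238, adjusted 0.167). The *hoxa9* ratio then differed by −0.30 (exact p = 0.167, adjusted 0.292).

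**Figure D4:**
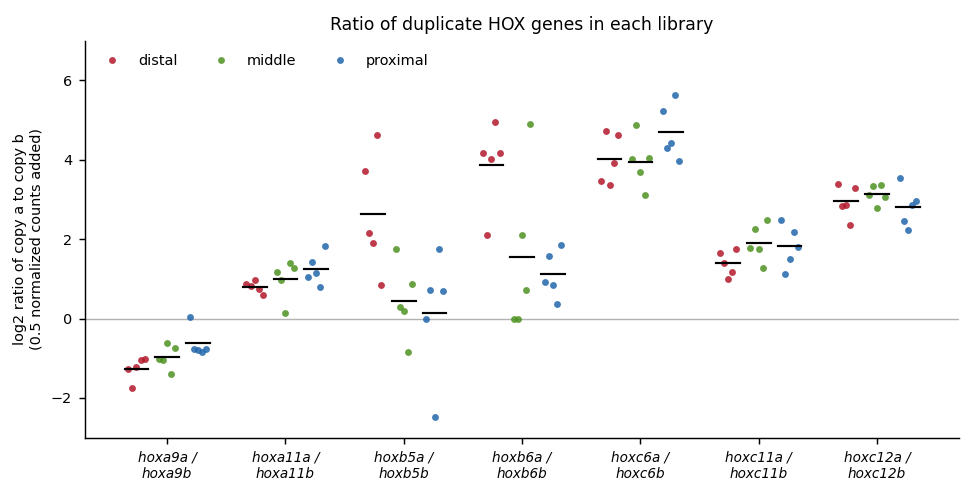
Log2 ratio of copy a to copy b of each duplicated HOX gene, 1 point per library, with the mean of each position in black. The *hoxa9* ratio lies between −1.75 and −1.01 in the distal libraries and between −0.83 and 0.03 in the proximal ones, and the distal points of *hoxb5* and *hoxb6* rest on few reads of copy b.

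The group 13 genes, the most posterior of the clusters, had 4 of 6 called higher and 1 lower in distal than in proximal fin in the authors' deposited table. Of all genes, 17.9% were called higher and 18.1% lower. *hoxa13b* averaged 1030.0 ± 157 normalized counts in distal, 879 ± 201 in middle and 519 ± 119 in proximal fin, and *hoxb13a* 3.73 ± 2.61, 15.8 ± 4.21 and 28.5 ± 7.42. *hoxa13b* was called higher in middle than in proximal fin (1.70-fold, adjusted p = 0.00823 in the authors' deposited table). No gene of groups 1 to 12 was, where 3.51% of all genes were. The difference between the lists was not tested.

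Of the TALE homeodomain genes, whose products bind DNA together with HOX proteins, 2 of 12 listed were called higher and 5 lower in distal than in proximal fin, 16.7% and 41.7%, against 17.9% and 18.1% of all genes. Their median log2 fold change was −0.62. *meis1a* averaged 44.7 ± 7.502 in distal, 131 ± 11.2 in middle and 181 ± 10.4 in proximal fin, and *pbx1a* 121 ± 3.23, 167 ± 7.68 and 200.3 ± 32.8. *pknox2* averaged 99.7 ± 4.56, 45.1 ± 13.7 and 46.2 ± 8.49. Of 14 listed chromatin regulators of HOX clusters 2 were called higher and 3 lower, 14.3% and 21.4%, which lies near the shares of all genes; the Polycomb genes *suz12a* (329 ± 37.2, 512 ± 88.7 and 549 ± 78.9 from distal to proximal) and *bmi1b* (38.7 ± 3.89, 102 ± 28.9 and 113 ± 37.4) and the Trithorax-type gene *kmt2a* were lower distally, and *rnf2* and *kdm6bb* were higher. None of the 3 listed caudal and even-skipped genes was called; *evx1*, expressed in fin ray joints, averaged 42.7 ± 10.5 in distal and 59.7 ± 5.09 in proximal fin (adjusted p = 0.0727 in the authors' deposited table; 1 of 3 had an unadjusted p under 0.05, and limma called 0 higher and 1 lower).

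Some markers of the cell types in the fin differed between the same positions. Between distal and proximal fin, 17.9% of all genes were called higher and 18.1% lower. Of the fibroblast markers 6 of 6 were called higher in distal than in proximal fin, and their summed level ran from 38280 to 44889 normalized counts in distal, 32249 to 39858 in middle and 22889 to 31235 in proximal libraries. That sum is mostly *col1a2*, which averaged 37324 in distal, 33550.1 in middle and 25479 in proximal fin; between middle and proximal fin the median log2 fold change of the 6 markers was −0.12, with 1 called higher and 1 lower. Osteoblast markers had 3 of 5 higher and 1 lower, with sums of 4966 to 7525 in distal, 1647 to 3235 in middle and 2026 to 5678 in proximal libraries. Epidermis markers had 3 of 5 higher and 1 lower, with sums of 34832 to 40219, 31269 to 35889.6 and 26384 to 31110.1 from distal to proximal, and endothelium markers 2 of 4 higher and 1 lower, with sums of 1649 to 1789, 1284 to 1423 and 1248 to 1714. Schwann cell markers had 1 of 5 higher and 4 lower, with sums of 617 to 803 in distal, 923 to 1078 in middle and 1246 to 1478 in proximal libraries. Skeletal muscle markers had 0 of 4 higher and 1 lower, with sums of 28.0 to 56.7, 88.5 to 280 and 50.5 to 183, and neuron markers 0 of 4 higher and 1 lower, with sums of 4.83 to 11.2, 15.4 to 29.1 and 10.7 to 29.0. Blood and immune markers had 1 of 5 higher and 3 lower, with overlapping sums of 969 to 1599.9 in distal, 1196 to 1932 in middle and 1226 to 1847 in proximal libraries. No marker with recovered counts was without reads. The part of these marker differences in the HOX results was not tested.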

How the data were processed

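Per the submitters' processing notes, the tools were TopHat2 2.0.13, HTSeq and DESeq, and the genome build was GRCz10, with no roles stated. The annotation and strand setting are not given in any source used here. Per the file headers, the authors deposited 3 pairwise tables and 1 table of monotonic genes, which holds none of the 41 genes. The signal columns of the deposited tables are means over 5 libraries of counts divided by size factors. The ratio columns of the authors are folds of these means, and the deposited log2 columns their log2. The p-values of each pair of positions, raw and adjusted over the table, were deposited by the authors in the last columns. The score column of the authors' monotonic table was not used.

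Calls use the authors' adjusted p at a threshold of 0.05. The 5 counts behind each deposited mean, printed with 15 digits, were solved by lattice reduction from both tables that hold the position: 23461 genes had all 15 libraries solved, 431 were missing from a table and 34 had several solutions. On means of the monotonic table that were not used to read the size factors, the counts gave 469, 502 and 504 deposited values for distal, middle and proximal fin within 4.9e-15 of their size. The recovery was also tested on simulated data drawn at the means of each position, where every gene with a single solution (23304 distal, 23350 middle, 23344 proximal) had all counts right. As an alternative to the authors' test, limma 3.58.1 (voom, all 15 libraries together, R 4.3.3) was run on the recovered counts of genes that reached 10 reads in 5 or more libraries. In simulated data with 200 changed genes, of 18764 tested, that fit called 10.4%, 86.6% and 100.0% of genes changed 1.5-fold, 2-fold and 4-fold between distal and proximal fin, with 4 unchanged genes called. The changed genes had a mean of at least 20 normalized counts, and all genes were drawn at 1 dispersion, 0.05. In the real data limma called 25.8% of genes higher and 25.7% lower, so its adjusted p is less strict there. The percentages therefore do not give the share of changes missed in the real data. Intervals are 95% limma intervals or, where a position held at most 10 reads, exact binomial ones. The exact permutation test of duplicate pairs was computed directly in Python, and its p-values were adjusted with scipy 1.17.1.

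The 41 genes, the gene lists and the alternatives were chosen with earlier results of these data known. Values per library are given for each gene called in at least 1 comparison and for the 10 with the largest sum of means, others by range and counts. Symbols came from the tables.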

Additional observations from a re-analysis of the deposited data

Results flagged for a closer look

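Of 122 groups of 5 libraries (a gene at a position), 11 held a value whose gap to the nearest other exceeded 0.71 of the group's range. This limit marks about 1 in 20 groups of independent, normally distributed values. Some groups here hold very few reads, and the genes share libraries, so the rate by chance in these data was not determined. In distal fin these were *hoxa1a* in library 1 (36.2 normalized counts, next 23.5), *hoxa11a* in library 5 (135, next 108), *hoxa11b* in library 5 (88.8, next 62.9), *hoxb6b* in library 2 (2.24, the others 0) and, as a low value, *hoxb9a* in library 2 (12.3, next 34.1). In middle fin they were *hoxa9a* in library 5 (47.9, next 34.1) and *hoxb4a* in library 2 (14.6, next 4.81). In proximal fin they were *hoxb3a* in library 5 (23.2, next 10.5), *hoxd10a* in library 5 (20.4, next 11.7), *hoxd9a* in library 1 (20.53, next 14.6) and *hoxc12b* in library 3 (45.5, next 34.0). The calls of *hoxa1a*, *hoxa11a* and *hoxa11b* held in limma without each of these libraries.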

How the results depend on the processing

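Of the 17 calls of named genes in the 3 comparisons, 316 of 323 values under other limma settings passed an adjusted p of 0.05 in the same direction, 7 did not pass and 0 reversed. Of 646 values of named genes that were not called, 4 passed. Most of these settings were the 15 fits that each left out a library, which share most of their data. Some left out a library of the position outside the comparison. Fits of a pair of positions alone and without the count minimum were not among them. Under an adjusted p of 0.01 the authors' tables held 5 called genes between distal and proximal fin, 0 between middle and proximal fin (limma called 1 at 0.05, and 2 had an unadjusted p under 0.05) and 4 between distal and middle fin. With an unadjusted p under 0.05, added after the data were seen, the middle and proximal comparison held 2, and without 4 libraries, also added, 0. Leaving out each library in turn gave 8 to 9 calls between distal and proximal fin, 1 between middle and proximal fin, 7 to 9 between distal and middle fin, and 0 to 4 duplicate pairs. Scaling positions to equal totals gave 10 calls between distal and proximal fin, and no count minimum 11, of which 2 were lower. The share of all genes called is not given here for 0.01, left-out libraries, equal totals or no count minimum. These counts can therefore not be set against all genes. Pseudocounts of 0.1 and 1 left 3 duplicate pairs past the threshold. The cause of these changes was not tested. No paired analysis was possible because the tables give means, and the recovered libraries carry no replicate number. Depth limits the B clusters most, where 9 genes failed the count minimum.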
